A study of Mus musculus with 6 samples.

Results

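Notch receptors, Notch ligands and the Hes and Hey repressors that Notch switches on were examined in mouse fibroblasts whose RNA polymerase II could not be acetylated on its C-terminal domain. The members were 10 genes of the pathway, 3 receptors (Notch1, Notch2 and Notch3), 3 ligands (Jag1, Jag2 and Dll1) and 4 target genes (Hes1, Hey1, Hey2 and Heyl), out of 19938 genes that had a probe set with a single gene symbol. They were taken by name, and each had 1 such probe set. The cells were NIH/3T3, an immortalized mouse fibroblast line. They stably carried an HA-tagged mouse RPB1, the largest subunit of the polymerase. In 8KR cells (3 arrays) every lysine at position 7 of the repeats in its tail had been replaced by arginine, and wild type cells (3 arrays) carried the unchanged protein. Both groups were kept under α-amanitin at 2 µg/ml, a toxin that blocks the cell's own polymerase, and their DMEM held bovine calf serum at 10%. The sources used here do not say whether the 3 samples of a group came from separate stable populations, so p-values measure only the spread between these samples.

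Notch signaling passes between touching cells. A Jagged or Delta-like ligand on a neighbour pulls on the receptor, ADAM proteases and γ-secretase cut it, and the freed intracellular domain enters the nucleus. There it joins the DNA-binding protein RBPJ and a Mastermind coactivator, and genes such as Hes1 and Hey1 are transcribed. Hes and Hey proteins are basic helix-loop-helix repressors, and in fibroblasts and related mesenchymal cells the pathway is known for its hold on differentiation.

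Values are log2 intensities of Affymetrix Mouse Gene 1.0 ST arrays, on which a set of probes (a probe set) reads each transcript. Probe sets with a group mean above 3.0, the study's cutoff for background, were tested with limma (8KR minus wild type). A gene was called at a Benjamini-Hochberg adjusted p under 0.05 over 28543 probe sets. Array medians were 4.53 to 4.54 in 8KR cells and 4.49 to 4.52 in wild type cells. Over the tested probe sets, arrays of the same group correlated at 0.982 to 0.984, and arrays of different groups at 0.975 to 0.978. All 10 fibroblast markers examined, among them Col1a1 and Vim, had means above 5.0 in both groups, but 3 of them were called, all lower in 8KR cells (log2 differences of -0.75 for Pdgfra, -0.52 for Sparc and -0.52 for Col3a1). The log2 of the summed intensity of the 10 was 14.15 to 14.17 on the 8KR arrays and 14.30 to 14.35 on the wild type arrays, and its part in the values of the Notch genes was not tested. Of 5 endothelial, 5 skeletal muscle and 5 neural markers, none had means above 5.0 in both groups. Of 5 epithelial markers 1 had such means (Krt8), as had 1 of 4 blood markers (Cd68), and no marker of these 5 cell types was called. Polr2a, the gene of RPB1 itself, lay at 12.12, 12.13 and 12.13 in 8KR cells and at 12.10, 12.11 and 12.09 in wild type cells, although the probe set does not separate the introduced copy from the cell's own. In RNA pooled over many cells, fewer cells that express a gene and less RNA per cell cannot be told apart.

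None of the members passed the test. Hey2 was below the background cutoff in both groups and was not tested, and the other 9 had adjusted p-values of 0.099 to 0.996 from limma. Over all 17145 genes tested, 5.39% were called, 2.33% higher and 3.06% lower in 8KR cells. All 9 tested members had a difference below 0, between -0.40 and -0.0020 on the log2 scale with a median of -0.11, whereas the median over all tested genes was 0.0088 and 8269 of the 17145 had a difference below 0. Notch1, Notch3, Jag1 and Hes1 changed sign when some single arrays were left out. The members were chosen with earlier results of these data known, so the shared sign cannot be read as an excess over all genes. At an unadjusted p under 0.05 from limma, 2 members, Notch2 and Hey1, were lower in 8KR cells, and 11.0% of all tested genes were lower by that rule. The same 2 had arrays that did not overlap between the groups, against 29.7% of all tested genes, or 14.7% counting only those lower in 8KR cells. An ordinary test per probe set, with no sharing of variance between probe sets, also called 0 members.

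**Figure D1:**
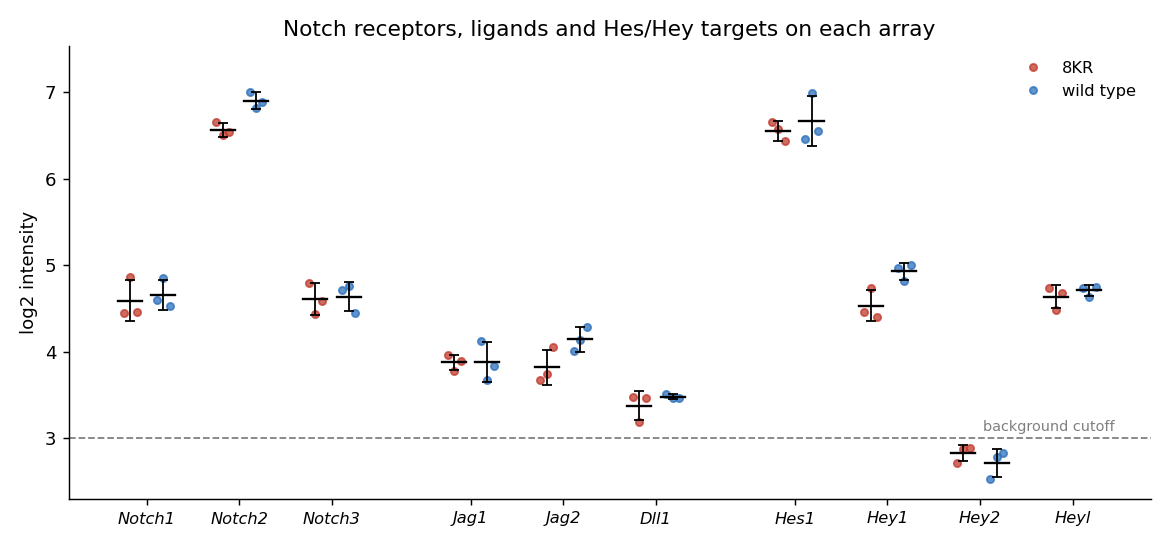
Log2 intensity (vertical axis) of the 10 members on the 3 8KR arrays (red) and the 3 wild type arrays (blue), each point being 1 array and the lines giving mean and SD. The dashed line marks the background cutoff of 3.0. The groups are separate for Notch2 and Hey1, overlap for the other 8 genes, and Hey2 lies under the cutoff on all arrays.

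Among the receptors, Notch2 differed most between the groups. Notch2 read 6.66, 6.51 and 6.54 on the 8KR arrays and 7.01, 6.82 and 6.88 on the wild type arrays. Every 8KR array lay below every wild type array, with a gap of 0.16 between the nearest values. The means were 6.57 ± 0.08 in 8KR cells and 6.90 ± 0.10 in wild type cells (SD, n = 3 each), a log2 difference of -0.34 (standard error 0.09, 95% interval -0.55 to -0.12, adjusted p = 0.099 from limma), or 0.792-fold. With the filter raised to a group mean above 5.0, Notch2 was called (adjusted p = 0.042 from limma). Only 2 members, Notch2 and Hes1, were tested under that filter, and it called 17.6% of the 9883 genes tested. The 10 tested genes that flank Notch2 on its chromosome, 5 on each side, held no called gene and had a median log2 difference of -0.077. Its promoter is shown because Notch2 is the receptor whose groups were separate. It is taken from RefSeq for GRCm38.p6, plus strand, chr3:98013288-98013587, from 250 bases before to 50 bases after the gene start. No stretch is in capitals, since neither motif described with Hey2 occurs in it.
Notch2: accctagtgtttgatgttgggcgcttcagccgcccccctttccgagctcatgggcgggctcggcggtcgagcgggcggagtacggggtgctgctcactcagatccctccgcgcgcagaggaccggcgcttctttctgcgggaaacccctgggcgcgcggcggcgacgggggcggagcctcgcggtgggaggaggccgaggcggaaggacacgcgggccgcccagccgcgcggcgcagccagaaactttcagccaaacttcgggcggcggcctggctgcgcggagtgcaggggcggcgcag

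Notch1, the receptor best known from T cells and tumors, had array values that ran through each other. They were 4.45, 4.87 and 4.46 in 8KR cells and 4.59, 4.85 and 4.53 in wild type cells. Replicate 2 was the highest array of both groups. The log2 difference was -0.068 (95% interval -0.44 to 0.30). Notch3, a receptor prominent in pericytes and vascular smooth muscle, read 4.80, 4.43 and 4.59 in 8KR cells and 4.71, 4.76 and 4.44 in wild type cells. Its groups overlapped over nearly their full range, and the log2 difference was -0.031 (95% interval -0.36 to 0.30). The 5 listed markers of smooth muscle and pericytes differed in their summed level. The log2 of their summed intensity over 5 genes was 7.57 to 7.86 on the 8KR arrays and 8.30 to 8.45 on the wild type arrays, 1 of the 5 (Cspg4) had means above 5.0 in both groups, and none was called. Cnn1, Des and Cspg4 had log2 differences of -1.03, -0.74 and -0.64 with every 8KR array below every wild type array. Myh11 had means of 4.08 in both groups, and Rgs5 was below the cutoff in both. Cspg4 had the highest means of the 5 (7.14 in 8KR and 7.78 in wild type cells) and weighed most in the sum. Acta2, a smooth muscle gene outside this list, went the other way. Its means were 11.60 in 8KR and 11.32 in wild type cells, with separate groups (log2 difference 0.29, adjusted p = 0.074 from limma). The part of these markers in the values of Notch3 was not tested.

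Of the ligands, Jag2 had the widest difference, with groups that overlapped. Jag2, a Jagged ligand, read 3.67, 3.74 and 4.05 in 8KR cells and 4.0, 4.13 and 4.29 in wild type cells. The highest 8KR array lay above the lowest wild type array, and the log2 difference of -0.32 had a 95% interval of -0.65 to 0.0015 (adjusted p = 0.26 from limma). Jag1, the other Jagged ligand and itself a target of several signaling pathways, read 3.96, 3.78 and 3.89 in 8KR cells and 4.13, 3.67 and 3.84 in wild type cells. All 3 8KR values lay between the lowest and the highest wild type value, and the log2 difference was -0.0020 (95% interval -0.33 to 0.32). Dll1, a Delta-like ligand, read 3.48, 3.18 and 3.46 in 8KR cells and 3.51, 3.47 and 3.46 in wild type cells. A single array, 8KR replicate 2, stood apart from the other 5. The log2 difference was -0.11 (95% interval -0.36 to 0.14), and -0.0089 without that array. The ligands lay above the cutoff of 3.0 on all 6 arrays.

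Hey1 showed the largest difference of the target genes. This repressor, which many cells induce within a short time of Notch activation, read 4.46, 4.74 and 4.40 in 8KR cells and 4.97, 4.82 and 5.01 in wild type cells. The groups were separate, with 0.076 between 8KR replicate 2 and wild type replicate 2, the nearest arrays. The means were 4.53 ± 0.18 in 8KR cells and 4.93 ± 0.10 in wild type cells (SD, n = 3 each), a log2 difference of -0.40 (standard error 0.12, 95% interval -0.68 to -0.11, adjusted p = 0.13 from limma), or 0.759-fold. Its 10 flanking genes had a median log2 difference of 0.021 and included 1 gene called lower and none called higher.

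Hes1, the archetypal Notch target and also an oscillating gene in fibroblasts, gave no detectable difference. It read 6.66, 6.57 and 6.43 in 8KR cells and 6.46, 6.99 and 6.55 in wild type cells. Wild type replicate 2 was higher than all other arrays, and the remaining 5 arrays mixed. The log2 difference was -0.11 (95% interval -0.50 to 0.27) and was 0.049 without that array. Heyl, a Hey family repressor found in vascular and muscle cells, read 4.74, 4.49 and 4.68 in 8KR cells and 4.74, 4.63 and 4.75 in wild type cells. The log2 difference of -0.075 was smaller than the SD among 8KR arrays, 0.13, and the 95% interval ran from -0.31 to 0.16. Without 8KR replicate 2, the lowest array, the difference was -0.00043.

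Hey2, known for its role in the developing heart and vessels, was at background. It read 2.72, 2.87 and 2.88 in 8KR cells and 2.52, 2.78 and 2.83 in wild type cells, below 3.0 on all 6 arrays. The groups overlapped, and no fold change is given. Its promoter is shown because, of the 7 members with a promoter entry, it alone held the motif RBPJ is known to bind. The motif was searched as GTGGGAA on both strands. Hes1, Hey1 and Heyl had no promoter entry, so Hey2 was the only target gene searched, beside receptors and ligands. Of 32851 promoters of the same length, 6.38% held it at least 1 time and 0.256% at least 2 times. The shorter core TGGGAA, which lies within it, was held by 25.6% of the promoters. The sequence is from RefSeq for GRCm38.p6, minus strand, chr10:30842734-30843033, with the motif in capitals. The matches start 207 and 4 bases before the gene start, the farther of them on the opposite strand. A match of letters is not evidence of binding.
Hey2: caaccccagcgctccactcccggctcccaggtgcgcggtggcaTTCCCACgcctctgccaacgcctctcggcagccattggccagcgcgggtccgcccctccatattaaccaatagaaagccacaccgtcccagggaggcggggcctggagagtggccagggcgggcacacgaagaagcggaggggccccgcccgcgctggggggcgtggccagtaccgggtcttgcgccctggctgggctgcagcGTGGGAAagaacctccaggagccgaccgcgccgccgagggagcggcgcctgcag

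The arrays set limits on what could have been seen for these genes. Standard errors of the 9 tested members were 0.088 to 0.158. At these errors and at the smallest moderated t statistic among called probe sets, 5.07, a log2 difference of 0.44 (Notch2) to 0.80 (Hes1) would have been needed for a call. The 95% intervals of the 9 members together ran from 0.623-fold to 1.25-fold. They included 0 on the log2 scale for 7 members and lay below it for Notch2 and Hey1.

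**Figure D2:**
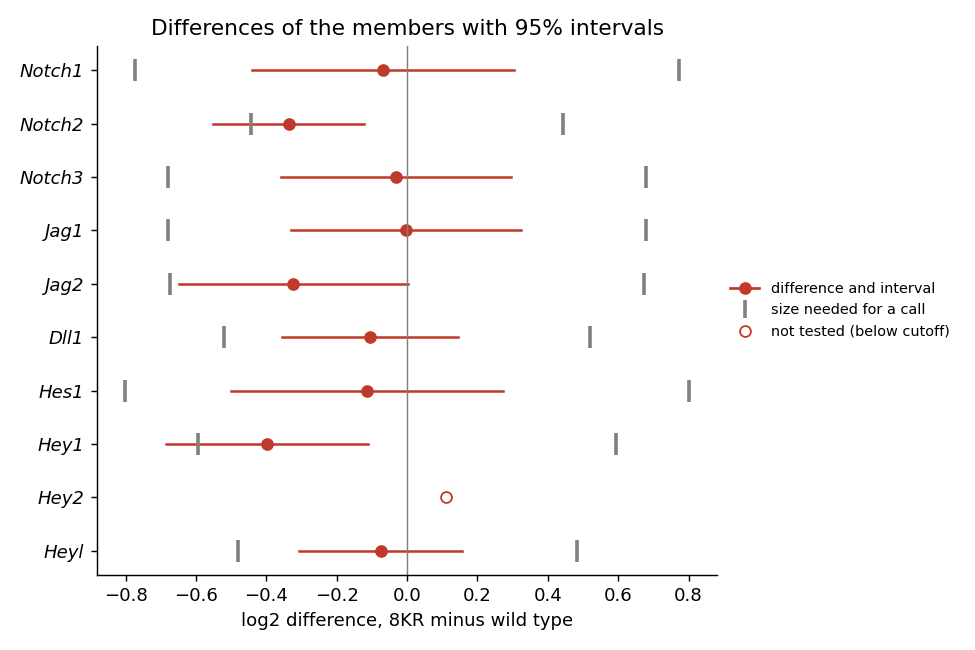
Log2 difference (horizontal axis, 8KR minus wild type) of each member with its 95% interval from limma, and grey ticks at the size that a call would have needed at the member's standard error. The points of Notch2 (-0.34) and Hey1 (-0.40) lie nearest to their ticks at 0.44 and 0.59, and the open point is Hey2, which was not tested.

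The rest of the pathway held some called genes. Of 89 further genes in 9 lists by function, 85 had a single-symbol probe set and all 85 were tested. Mib1 rose and Nfkb2, Bhlhe41, Sox9, Dlk1, Adam10 and Rbpj fell in 8KR cells. So 1 of 85 was called higher and 6 of 85 lower, where 2.33% and 3.06% of all tested genes were. The lists were chosen with earlier results of these data known, so these counts cannot be read as an excess over all genes. Single lists held 6 to 17 tested genes, and 5.39% of all tested genes were called. So 0 or 1 call in a list is not a result about its function. The median log2 difference of the 85 was -0.013, and 46 of them had a difference below 0.

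**Figure D3:**
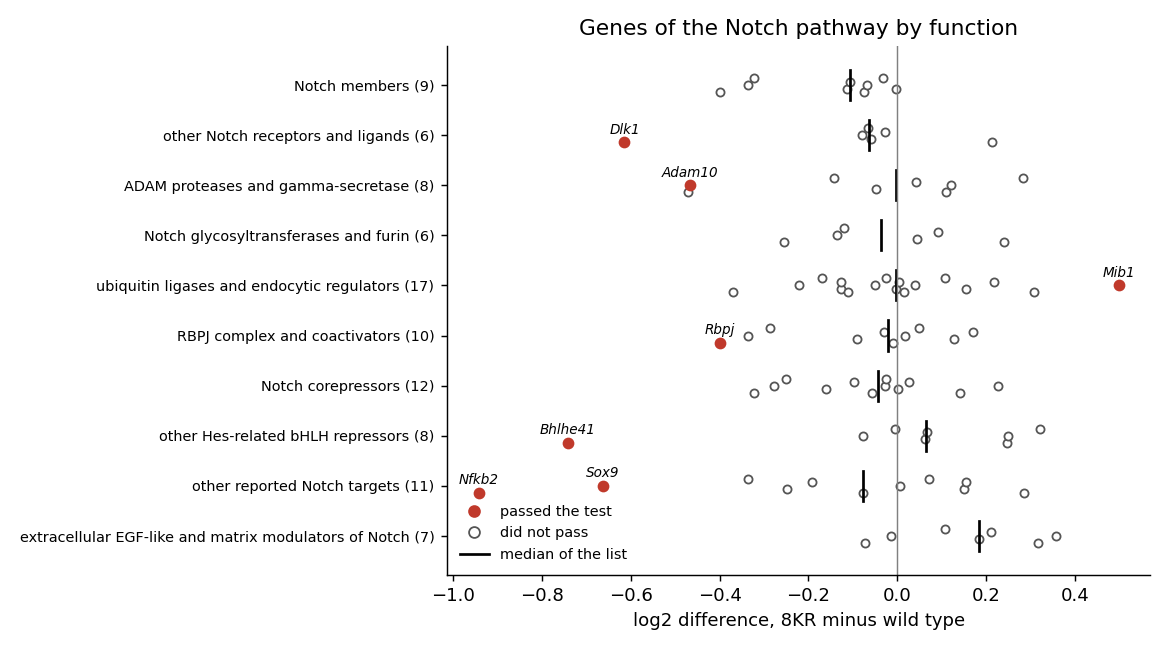
Log2 difference (horizontal axis, 8KR minus wild type) of the tested genes, 1 point per gene, in the members and in 9 further lists, with the number tested in parentheses and the median of each list as a black bar. Filled red points passed the test. The 7 called genes are spread over 6 of the 9 further lists, from Nfkb2 at -0.94 to Mib1 at 0.50.

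Rbpj, the DNA-binding protein through which Notch acts in the nucleus, was lower in 8KR cells. It read 8.32, 8.32 and 8.21 in 8KR cells and 8.65, 8.74 and 8.65 in wild type cells. The groups were separate by 0.33, and the log2 difference was -0.40 (standard error 0.075, adjusted p = 0.044 from limma), or 0.758-fold. A further Rbpj probe set with means of 2.83 in 8KR cells and 3.11 in wild type cells had a log2 difference of -0.28 and an adjusted p of 0.50. Rbpj was no longer called when the probe sets of each gene were averaged (adjusted p = 0.12 from limma), with no filter on intensity (0.063) or after quantile normalization (0.052), and it lost its call under 11 of 18 alternatives in all. The mouse genome also holds Rbpj pseudogenes, and their part in the signal was not tested. Of the 10 flanking genes, 7 had a difference below 0 and 1 was called lower, with a median of -0.24. The promoter of Rbpj is shown because it is the called gene closest to the Hes and Hey targets in the pathway. It comes from RefSeq for GRCm38.p6, plus strand, chr5:53590096-53590395, 1 of 2 starts in the table, with the core TGGGAA in capitals on either strand, 149 and 65 bases before the gene start. The longer motif GTGGGAA occurs at neither start. Of 32851 promoters, 25.6% held the core at least 1 time and 3.79% at least 2 times, and a match of letters is not evidence of binding.
Rbpj: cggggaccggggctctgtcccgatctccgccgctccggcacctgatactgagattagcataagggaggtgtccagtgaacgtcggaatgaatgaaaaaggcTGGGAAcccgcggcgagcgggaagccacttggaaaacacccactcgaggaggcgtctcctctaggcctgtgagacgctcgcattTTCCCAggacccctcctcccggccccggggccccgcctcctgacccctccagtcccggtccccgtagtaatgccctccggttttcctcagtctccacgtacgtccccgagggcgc

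Its partners in the nucleus did not pass. Maml1, a Mastermind coactivator, read 6.98, 6.71 and 7.24 in 8KR cells and 7.12, 7.06 and 7.01 in wild type cells, and the groups overlapped. Of the other Mastermind genes, both picked after their values were seen, Maml2 had a log2 difference of -0.34 with separate groups (adjusted p = 0.21 from limma), and Maml3 one of 0.17 with overlapping groups. Of the 10 genes of the RBPJ complex and its coactivators, Rbpj alone was called. Ep300 encodes p300, a coactivator in this complex and the enzyme that acetylates the lysines changed in 8KR, and was picked after its values were seen. It read 7.55, 7.53 and 7.60 in 8KR cells and 7.90, 7.92 and 7.73 in wild type cells. Its log2 difference was -0.29 (adjusted p = 0.13 from limma), and the groups did not overlap. Of 12 corepressor genes none was called, and Ctbp1 had the lowest adjusted p of them (0.20, log2 difference -0.28).

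Adam10, the protease that makes the first cut in a ligand-bound Notch receptor, was lower in 8KR cells. It read 7.03, 6.91 and 6.93 in 8KR cells and 7.44, 7.42 and 7.41 in wild type cells. The wild type arrays lay within 0.025 of each other and above all 8KR arrays, and the log2 difference was -0.47 (standard error 0.072, adjusted p = 0.026 from limma), or 0.724-fold. Of its 10 flanking genes, 8 had a difference below 0 and 2 were called lower. The other 7 tested genes of this list, which were Adam17 and subunits of γ-secretase, did not pass. Of 6 genes for Notch glycosyltransferases and furin, which modify the receptor on its way to the surface, none was called. Furin had the lowest adjusted p among them (0.18, log2 difference -0.25).

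Ligands outside the members included a called gene. Dlk1, an imprinted gene whose product resembles Delta but lacks the domain that activates Notch, read 10.28, 10.12 and 10.19 in 8KR cells and 10.79, 10.81 and 10.84 in wild type cells. The groups were separate by 0.51, and the log2 difference was -0.61 (standard error 0.077, adjusted p = 0.015 from limma), or 0.653-fold. Notch4 and its endothelial partner Dll4 did not pass, with log2 differences of 0.21 and -0.028 and overlapping arrays. Mib1, the ubiquitin ligase that drives endocytosis of ligands in the sending cell, read 7.05, 7.0 and 7.25 in 8KR cells and 6.54, 6.59 and 6.66 in wild type cells. It was the only one of 17 ubiquitin ligases and endocytic regulators that passed, where 5.39% of all tested genes did. Its log2 difference was 0.50 (standard error 0.096, adjusted p = 0.047 from limma), or 1.41-fold. Of its 10 flanking genes, 8 had a difference above 0 and 2 were called higher, with a median of 0.30. The flanking genes of the other called genes varied. For Dlk1, which fell, 8 of 10 were above 0 (median 0.17) and none was called. For Sox9, 5 were above and 5 below 0, and none was called. For Bhlhe41, 4 were above and 6 below 0, with 1 called in each direction. For Nfkb2, 7 of 10 were below 0 and 1 was called lower. Whether the values of any called gene go with those of its neighbours was not tested.

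**Figure D4:**
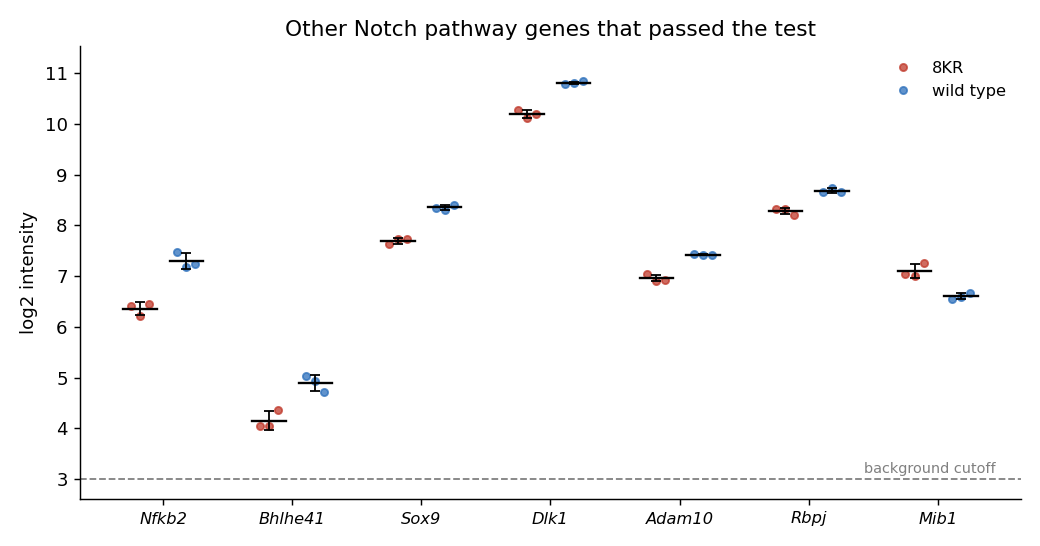
Log2 intensity (vertical axis) of the 7 further pathway genes that passed the test, on the 3 8KR arrays (red) and the 3 wild type arrays (blue), each point being 1 array and the lines giving mean and SD. The 8KR arrays lie below the wild type arrays for the first 6 genes and above them for Mib1.

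Among genes reported elsewhere to respond to Notch, a transcription factor and an NF-κB subunit passed the test. Of 11 such targets outside the members, Nfkb2 and Sox9 fell, none rose and 9 did not pass. Nfkb2, a subunit of NF-κB that Notch activates in T cells, read 6.41, 6.21 and 6.45 in 8KR cells and 7.47, 7.17 and 7.24 in wild type cells, a log2 difference of -0.94 (standard error 0.12, adjusted p = 0.014 from limma). Sox9, a transcription factor of cartilage, read 7.63, 7.72 and 7.72 in 8KR cells and 8.34, 8.31 and 8.41 in wild type cells, a log2 difference of -0.66 (standard error 0.073, adjusted p = 0.010 from limma). Both genes had separate groups, and both also answer to pathways other than Notch. Of 8 further Hes-related repressors, Bhlhe41, a repressor in the circadian clock, fell by 0.74 on the log2 scale (adjusted p = 0.038 from limma). It read 4.04, 4.05 and 4.37 in 8KR cells and 5.03, 4.93 and 4.72 in wild type cells. Of 7 extracellular modulators of Notch none was called. Mfap5, a microfibril protein, had the lowest adjusted p among them (0.11, log2 difference 0.36), and the median of this list was 0.18.

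Most of these calls rested on all 6 arrays. Leaving out any 1 array ended the call for Adam10 (adjusted p 0.069 to 0.095), Rbpj (0.11 to 0.13), Mib1 (0.094 to 0.13) and Bhlhe41 (0.055 to 0.12). Dlk1 kept its call only without 8KR replicate 1, and otherwise its adjusted p was at most 0.063. Nfkb2 lost it without 8KR replicate 1, 8KR replicate 2 or wild type replicate 3 (at most 0.057). Sox9 kept its call under each of the 6 omissions (adjusted p 0.044 to 0.050 from limma). With no filter on intensity, Mib1 (0.064) and Bhlhe41 (0.0502) also lost their calls, as they did in the ordinary test per probe set (0.084 and 0.10). In all, Mib1 lost its call under 11 of 18 alternatives and Bhlhe41 under 10 of 17. Adam10 lost it under 8 of 18, Dlk1 under 7, Nfkb2 under 5 and Sox9 under 2. Fewer arrays leave fewer degrees of freedom, and the log2 differences of these 7 genes kept their sign in every omission.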

How the data were processed

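RNA of 3 8KR and 3 wild type samples had been hybridized to 1 array each. The authors normalized the deposited values and put them on a log2 scale. Affymetrix Power Tools 1.12.0 appears in processing notes of the submitters. For the method of normalization and the build, nothing is given in the sources used here. Normalization between arrays removes any change shared by most genes. Everything else was computed from the deposited log2 intensities. Of 35557 probe sets, 7014 with no group mean above 3.0 were removed, and 28543 were fitted with limma 3.58.1 (R 4.3.3), using lmFit and eBayes on the 6 arrays with group as the only term and two-sided tests. A gene was its probe set with the highest mean among those with 1 symbol in the platform annotation (21789 probe sets; 1621 have several symbols and 12147 none). Flanking genes followed the gene order of RefSeq, assembly GRCm38.p6. Promoters ran from 250 bases before to 50 after the gene start. Of the 10 members 7 had an entry, and Hes1, Hey1 and Heyl had none.

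The members, the lists and the rule for naming genes were chosen with earlier results of these data known. The rule took the members, up to 4 called genes of each list or else the gene with the lowest adjusted p, some core pathway genes and Polr2a. It also asked for the genes most like each called member, of which there was none. Not every core gene is reported here. The fit was tested on simulated data over 28543 probe sets: of 50 probe sets changed by a log2 difference of 0.5, 2 were recovered, with 23 of 50 at 1 and 43 of 50 at 2. Arrays give no read depth, and their number limits the precision. Tried in turn were other filters on intensity, further normalization, other variance models, weights on arrays, a replicate block, other choices of probe set, an adjusted p under 0.01 and the omission of each array. Figures were drawn with matplotlib 3.10.9.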

Additional observations from a re-analysis of the deposited data

How the results depend on the processing

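The number of members called stayed at 0 under 17 of 18 alternatives and was 1, Notch2, of 2 tested once probe sets needed a group mean above 5.0, where 17.6% of 9883 genes were called. At an adjusted p under 0.01, 0 was already fixed by the main fit. The omissions of an array, the ordinary test and the replicate block called fewer of all genes, so a 0 there adds little. Of the other pathway genes 1 was called higher and 6 lower in 8KR cells. The number higher was 3 with that filter and 3 with an intensity trend in the variance, and it was 0 with no filter, with arrays centred on the median, at an adjusted p under 0.01, with the replicate block and without any 1 array (0 to 0). The number lower was 0 at an adjusted p under 0.01 and 0 with the replicate block, and 1 to 2 without an array. Over all genes, 399 were higher and 525 lower. The filter at 5.0 gave 817 and 920, the intensity trend 685 and 843, single-symbol probe sets alone 754 and 884, the mean of a gene's probe sets 805 and 933, and an adjusted p under 0.01 gave 89 and 121. Omissions of 1 array gave 108 to 125 and 153 to 168, and the ordinary test gave 345 lower. The replicate block gave 22 and 41. Deviations of same-numbered arrays had correlations of -0.011, 0.0086 and -0.00048, and 2 of 6 arrays correlated best with their own number. These values cover all tested probe sets together. They cannot decide whether same-numbered arrays share a day or batch that moved some genes, and the sources used here state no pairing. The cause of these shifts was not tested beyond what each alternative removes.

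Notch1, Notch3, Jag1 and Hes1, whose differences were near 0, changed sign without some arrays, over ranges of -0.21 to 0.029, -0.13 to 0.056, -0.11 to 0.12 and -0.22 to 0.049. Notch2, Jag2 and Hey1 stayed below 0 under every alternative that measured them, at -0.38 to -0.28, -0.44 to -0.25 and -0.50 to -0.33. Dll1 and Heyl also stayed below 0, but without 8KR replicate 2 they were at -0.0089 and -0.00043. With single-symbol probe sets alone, the adjusted p from limma was 0.058 for Notch2 and 0.070 for Hey1. With the mean of a gene's probe sets it was 0.057 and 0.063. Over all settings the adjusted p ran from 0.042 to 0.23 for Notch2 and from 0.063 to 0.29 for Hey1. The median over all genes moved by less than 0.1 under every scaling.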
